A study of Mus musculus with 14 samples.

Results

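Fusion-gained regions between genes are stretches of DNA that were open in mouse neural stem cells carrying the ZFTA-RELA fusion, without a peak in empty-vector cells, and away from any protein-coding gene. To find them, the peaks of 2 empty-vector (EV) and 2 untreated fusion (ZR) libraries on chromosomes 1 to 19 were merged into 72575 regions. A region was kept where both ZR lists and neither EV list had a peak, where it lay outside all protein-coding gene bodies, and where it was more than 1 kb from their ends in the mm10 RefSeq annotation. This left 7763 regions of the 29574 between genes, or 26.2% of these (the rule found 22.3% of all merged regions gained, at genes or between them). The members were chosen by the presence or absence of a peak in the EV and ZR lists, so values in those 4 libraries describe the set and test nothing. The other 10 libraries were not used in the choice.

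The ZFTA-RELA fusion joins the zinc finger protein ZFTA to RELA, the activating subunit of NF-kB, and drives a childhood ependymoma of the upper brain. Open chromatin far from genes often marks enhancers, stretches where transcription factors displace nucleosomes and which can act on a promoter at a distance. In ATAC-seq the Tn5 transposase inserts adapters into such open DNA, and a peak is a place where insertions pile up.

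The study held 14 peak lists from 7 groups of 2 libraries, each made from 50000 mouse neural stem cells. EV cells carried an empty vector (replicate 1 labelled DMSO vehicle, replicate 2 PBS), and ZR cells the fusion with PBS vehicle. Fusion cells titled DMSO (ZR_DMSO, labelled PBS vehicle), GSK343 at 10 µM for 96 h (ZR_GSK343) and dmCitra (ZR_dmCitra, labelled citraconate at 10 mM) completed the first library series. A second series held DMSO_50K, whose labels say empty vector and DMSO vehicle, and Citraconate_50K, labelled fusion and citraconate at 10 mM. GSK343 inhibits EZH2, the enzyme that methylates histone H3 at lysine 27 to silence genes, and citraconate is an isomer of itaconate, a metabolite made by the enzyme ACOD1. For citraconate, exposures of 24 h and 48 h are named with no word on which library had which, and the labels do not tell whether replicates were grown apart. The promoter driving the fusion and the number of clones are not given in the labels.

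The lists held 11806 to 58475 peaks on chromosomes 1 to 19, with the shortest in ZR_DMSO (11806 and 20051) and the most unequal pair in ZR_GSK343 (18324 and 55369). ZR_DMSO peaks were narrow (median 229 and 187 bp), those of ZR_GSK343 intermediate (333 and 259 bp), and all other libraries had medians of 420 to 535 bp. The lists carry no read counts, so depth is not known and intervals for counting error could not be computed. Of 9 neural stem genes, 8 and 8 had a peak at a gene end (within 1 kb) in EV but 5 and 4 in ZR, and 1 to 5 in the other libraries. Among 10 neuron markers the count was 6 and 5 in EV, 6 and 6 in ZR and 1 to 7 elsewhere. Oligodendrocyte markers (9) went from 4 and 4 in EV to 2 and 2 in ZR, and vascular and mural markers (9) from 4 and 4 to 2 and 1. Cilia and ependymal markers (12) stayed at 6 and 6, astrocyte markers (8) had 3 and 3 against 4 and 3, and microglia markers (10) 3 and 2 against 2 and 2. The lower count in ZR was thus not limited to neural stem genes. The part of cell identity in the results below was not tested.

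No genome sequence was used here, but some of the regions covered RefSeq promoter windows of long non-coding RNAs (250 bases before to 50 after the start), which lie between protein-coding genes. In total 104 regions (1.34%) touched 115 such windows, and 53 windows lay wholly inside 49 regions. Of 6 such windows taken by their region's standing in the ZR lists, the 4 with the letters TGANTCA, recognised by the AP-1 family of stress-responsive bZIP factors, are shown with 1 that lacked them. The windows are those of Gm38928 (chr6:145977439-145977738, minus strand), Gm31870 (chr1:193655266-193655565, plus), A530046M15Rik (chr13:15806993-15807292, plus), Gm52101 (chr14:34764129-34764428, minus) and Gm30296 (chr12:102730437-102730736, plus). Sequences are from RefSeq (GRCm38.p6, the coordinates of mm10), run 5′ to 3′ on the gene's strand, and have AP-1 matches in capitals.
Gm38928: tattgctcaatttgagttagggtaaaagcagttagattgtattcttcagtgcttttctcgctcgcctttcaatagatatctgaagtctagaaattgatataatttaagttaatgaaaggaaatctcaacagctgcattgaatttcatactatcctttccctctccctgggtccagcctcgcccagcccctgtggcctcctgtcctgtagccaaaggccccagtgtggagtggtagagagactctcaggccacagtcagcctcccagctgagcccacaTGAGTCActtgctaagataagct
Gm31870: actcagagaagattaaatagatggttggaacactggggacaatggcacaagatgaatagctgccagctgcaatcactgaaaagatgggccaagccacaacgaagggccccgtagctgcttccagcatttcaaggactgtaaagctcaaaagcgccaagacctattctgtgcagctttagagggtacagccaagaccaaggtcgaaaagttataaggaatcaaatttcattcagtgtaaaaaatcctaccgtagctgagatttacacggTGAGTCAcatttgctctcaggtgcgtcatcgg
A530046M15Rik: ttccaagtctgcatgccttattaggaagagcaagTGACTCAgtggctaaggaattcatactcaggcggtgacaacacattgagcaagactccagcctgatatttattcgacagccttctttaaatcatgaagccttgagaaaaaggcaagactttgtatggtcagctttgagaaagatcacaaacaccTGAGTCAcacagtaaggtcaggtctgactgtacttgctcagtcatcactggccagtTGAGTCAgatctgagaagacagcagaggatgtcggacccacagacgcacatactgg
Gm52101: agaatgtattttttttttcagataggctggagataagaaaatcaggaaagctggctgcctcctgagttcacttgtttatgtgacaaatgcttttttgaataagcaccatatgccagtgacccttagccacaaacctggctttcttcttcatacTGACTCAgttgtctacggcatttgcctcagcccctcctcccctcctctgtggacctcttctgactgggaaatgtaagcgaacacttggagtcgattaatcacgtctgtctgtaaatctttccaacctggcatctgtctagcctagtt
Gm30296: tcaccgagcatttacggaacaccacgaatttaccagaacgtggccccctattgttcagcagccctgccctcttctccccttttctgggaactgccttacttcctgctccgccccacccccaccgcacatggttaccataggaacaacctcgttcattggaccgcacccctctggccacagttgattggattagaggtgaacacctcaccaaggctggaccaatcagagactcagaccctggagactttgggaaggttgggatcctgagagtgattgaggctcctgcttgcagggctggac

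The region over the Gm38928 window, 12.2 kb from the sarcospan gene Sspn, had a peak in all 10 libraries outside the rule. Its authors' fold enrichment over background was 39.9 and 35.0 in ZR, 12.7 and 8.13 in ZR_DMSO, 5.44 and 13.98 in ZR_GSK343, 35.3 and 26.5 in ZR_dmCitra, 36.2 and 50.9 in DMSO_50K and 10.9 and 14.99 in Citraconate_50K. A530046M15Rik, 76.7 kb from the hedgehog pathway factor gene Gli3, held 3 matches, and its region had a peak in 9 of the 10 libraries, with none in ZR_GSK343 replicate 1. The Gm31870 region lay 285 kb from the kinase gene Camk1g and was found in 8 of 10. Gm52101, 16.0 kb from Wapl, which releases cohesin from chromosomes, was found in 9 of 10. The Gm30296 region, with no AP-1 match, reached 38.3 and 40.3 in ZR and 65.8 and 66.1 in DMSO_50K and was found in 8 of 10. Folds come from separate lists and were used to place a peak within its own list.

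Over all 53 windows inside fusion-gained regions, 24 (45.3%) held TGANTCA on either strand. The share was 7.89% of 76 windows inside regions lost in fusion cells, 11.7% of 196 windows inside regions of all 4 EV and ZR lists, 9.25% of 11311 long non-coding RNA promoters and 7.84% of all 31396 promoters in the table. Counted once per region, since some windows of a gene overlap, it was 21 of 49 (42.9%) against 3 of 65 (4.62%) and 23 of 169 (13.6%). The AP-1 letters were thus more frequent in these windows than in each of the other sets, which is a description with no test. With overlapping windows counted once there were 25 matches, which lay a median of 25.5 bp from the nearer ZR peak summit, 20 of them within 100 bp. Other positions in the windows were not measured for comparison. Regions with a match had a peak in a median of 6 of the 8 fusion-labelled libraries outside the rule and those without in 5. The windows' median GC content was 49.7%, against 48.3% for long non-coding RNA promoters at large.

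Of the other letters searched on both strands, CAGCTG, an E-box read by basic helix-loop-helix factors, was in 24 of 53 windows (45.3%), against 25.0% in lost, 17.3% in shared and 17.6% of all long non-coding RNA windows. In 15 windows both letters occurred. The TEAD letters GGAATG were in 15.1% of gained, 15.8% of lost, 17.9% of shared and 16.7% of all windows. The SOX letters ACAATGG were in 9.43% of gained and 10.5% of lost windows, against 1.02% of shared and 4.92% of all. For the RUNX letters TGTGGTTT the shares were 7.55% of gained (4 windows), 2.63% of lost, 2.55% of shared and 2.11% of all. No window held the NF-kB decamer with a free middle base, which is in 0.389% of all long non-coding RNA windows, the NF-kB palindrome, the POU octamer ATGCAAAT, the CTCF core AGGTGGCAG or the NFI palindrome. The letters GTGGCCCC were in 3 windows (5.66%), against 0% of lost, 2.55% of shared and 1.33% of all long non-coding RNA windows. None of the motifs as searched contains another.

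**Figure D1:**
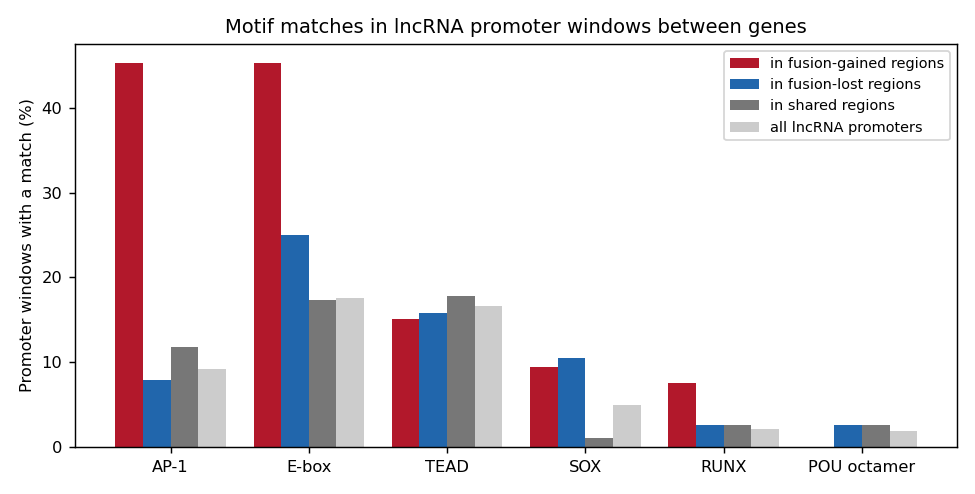
Share of RefSeq promoter windows of long non-coding RNAs (300 bases each) holding each motif's letters on either strand, for 53 windows inside fusion-gained regions between genes, 76 inside fusion-lost, 196 inside shared regions and all 11311. AP-1 letters stand at 45.3% in the first set and at 7.89% to 11.7% in the others.

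The regions were a little wider than all regions between genes and lay about as far out. Their median width was 461 bp (range 152 to 2421), against 378 bp for all 29574 between genes, 499 bp for the 5070 regions between genes lost in fusion cells and 792 bp for the 3493 present in all 4 EV and ZR lists (shared regions). These sets differ in how many lists had to hold a peak, and the set of all includes regions found in 1 list only. The part of this in the widths was not tested. The median distance to the nearest protein-coding gene was 43.1 kb, against 39.6 kb for all, 54.8 kb for lost and 28.2 kb for shared regions. More than 100 kb away were 2395 (30.9%), against 29.5% of all. Among all regions between genes the gained share went from 24.3% at 1 to 10 kb to 31.9% beyond 500 kb, while the shared part went from 15.1% to 5.00%. Fusion-gained regions overlapped the body of a long non-coding RNA gene in 1412 cases (18.2%, all regions between genes 19.4%). At the border of the rule, the 28 regions 1000 to 1100 bp from a gene stood at a median percentile of 28.6 within their poorer ZR list, and 26 regions left out at 900 to 1000 bp at 39.8. The median percentile was 42.9 for the regions kept, 40.8 for 1287 regions with a peak in 1 EV list as well, and 14.4 for 5220 found in 1 ZR list and no EV list.

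Chromosome 4 held few of them. There 14.4% of regions between genes were gained and 28.3% lost, whereas the genome-wide shares were 26.2% and 17.1%. Its 182 fusion-gained regions had a peak in 92.9% of cases in DMSO_50K, 56.0% in Citraconate_50K, 71.4% in ZR_dmCitra, 15.9% in ZR_GSK343 and 7.69% in ZR_DMSO (means of 2 libraries), where all chromosomes gave 78.4%, 37.9%, 79.1%, 28.9% and 21.6%. On the other 18 chromosomes the gained share ran from 19.4% (chromosome 11) to 31.1% (chromosome 1, with 830 regions the most of any). The part of a change in chromosome copy number in this was not tested.

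Most fusion-gained regions were found again in at least 1 of the libraries that had no part in choosing them. Of the 7763, 7052 (90.8%) had a peak in at least 1 of the 8 other libraries labelled as fusion cells, 1226 (15.8%) in 6 or more and 146 (1.88%) in all 8. The median was 3 of 8. Both libraries of a group had a peak at 72.3% of the regions in ZR_dmCitra, 28.8% in Citraconate_50K, 11.9% in ZR_DMSO and 5.91% in ZR_GSK343. Regions lost in fusion cells were missing from all 8 libraries in 4401 of 5070 cases (86.8%), with a median of 0. Shared regions had a peak in at least 1 library in 97.3% of cases and a median of 5. Inside gene bodies the 7671 fusion-gained regions gave almost the same values, 90.7% in at least 1 library and a median of 3.

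**Figure D2:**
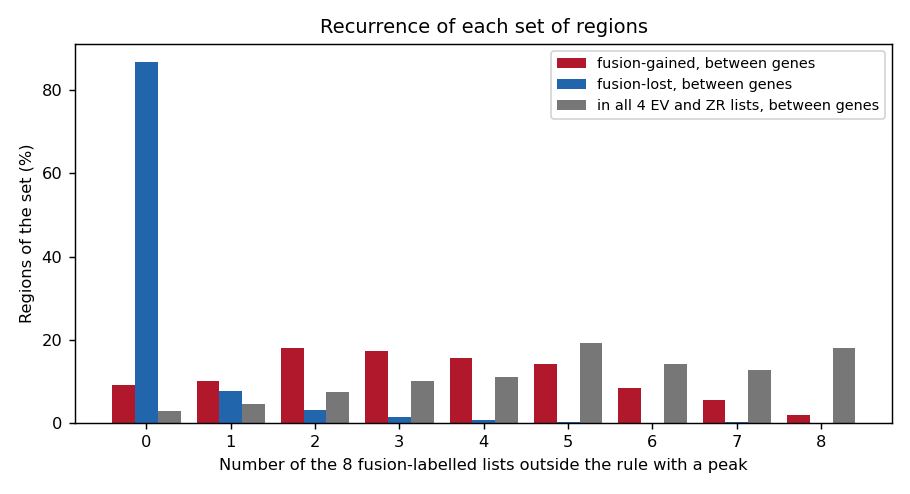
Percentage of fusion-gained, fusion-lost and shared regions between genes (vertical axis) with a peak in 0 to 8 of the fusion-labelled libraries outside the rule (horizontal axis). The fusion-lost bar stands at 86.8% for 0 libraries, where the fusion-gained bar is at 9.16%, and the fusion-gained regions spread over 1 to 6 libraries.

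The share of fusion-gained regions with a peak, in the lists as deposited, was 14.7% and 28.5% in ZR_DMSO, 6.21% and 51.7% in ZR_GSK343, 80.1% and 78.0% in ZR_dmCitra and 39.2% and 36.6% in Citraconate_50K. For regions lost in fusion cells it was 0.375% to 5.94% in these 8 libraries. The fusion-gained share was higher in each of the 8, by 5.03 to 75.7 percentage points and by 39.0 ± 25.5 on average (SD, n = 8). The size depends on the setting: with every list reduced to 11806 peaks the mean was 12.4 ± 6.97, and with a peak required to cover 50% of the region 26.8 ± 27.5. In all 3 settings the two-sided exact sign-flip permutation test gave p = 0.0078, the smallest that 8 libraries allow. Libraries of a group share treatment and series, and with 4 group means in place of 8 libraries the same exact permutation test gave p = 0.125, the smallest for 4. With ZR_dmCitra and Citraconate_50K alone the mean was 54.8 points, also at p = 0.125 in the exact permutation test.

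The DMSO_50K libraries went against their label. Labelled empty vector, they had a peak at 75.3% and 81.5% of the regions that both EV libraries lack, and at 16.0% and 20.1% of those that both EV libraries have and ZR lacks. The difference of 59.3 and 61.4 points lay within the range of the fusion-labelled libraries. Their share of fusion-lost regions did not, since the fusion-labelled libraries reached at most 5.94%. At equal length that share was 1.07% and 1.26% in DMSO_50K, against at most 0.533% in the fusion-labelled libraries. In total 5645 of 7763 regions (72.7%) had a peak in both. These libraries are therefore written as labelled DMSO_50K, and no direction from empty vector to fusion is drawn from them. Of all fusion-gained regions, 199 (2.56%) had no peak in any of the 10 lists outside the rule and 139 (1.79%) had one in all 10. Fusion-gained regions inside genes were close to this, at 2.71% and 1.94%. Between genes, shared regions gave 0.344% and 17.5% and lost regions 71.6% and 0%.

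**Figure D3:**
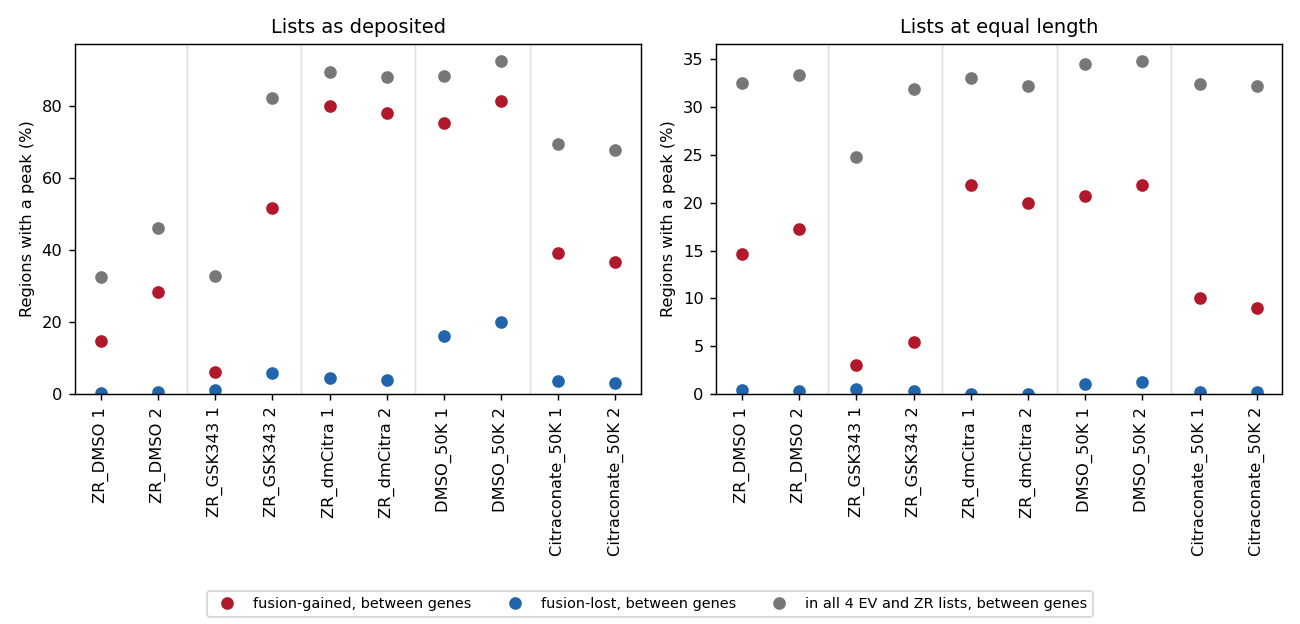
Percentage of fusion-gained, fusion-lost and shared regions between genes with a peak in each of the 10 libraries outside the rule (1 point per library), on the left in the lists as deposited and on the right with each list reduced to its 11806 best peaks. Fusion-gained regions lie above fusion-lost ones in all 10 libraries, and the 2 ZR_GSK343 libraries lie lowest at equal length, at 3.00% and 5.45%.

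Summits of peaks found again lay close to those of ZR replicate 1, which overlap with the same narrow region partly ensures. The median distance from a library's summit to the summit in ZR replicate 1 was 36 bp in ZR replicate 2, 37 and 36 bp in ZR_dmCitra, 45 and 40 bp in ZR_DMSO, 41 and 40 bp in DMSO_50K and 47 and 46 bp in Citraconate_50K. It was 39 bp in ZR_GSK343 replicate 2 and 75 bp in replicate 1, where 482 regions had a peak. In shared regions the medians for these libraries ran from 40 to 67 bp. Replicates differed in how many they found. ZR_dmCitra replicates 1 and 2 shared 5615 regions, 90.3% and 92.7% of each, while ZR_GSK343 shared 459, which is 95.2% of replicate 1 and 11.4% of replicate 2.

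How strong a region was in ZR went with how often it was found again. Regions were ranked by the poorer of their percentiles in the 2 ZR lists and split into 4 equal parts. The strongest part (median width 714 bp) had a peak in 98.9% and 98.7% of cases in ZR_dmCitra, 94.7% and 96.3% in DMSO_50K, 66.2% and 65.1% in Citraconate_50K, 43.3% and 70.3% in ZR_DMSO and 12.6% and 82.1% in ZR_GSK343. The weakest part (336 bp) gave 57.0% and 53.0%, 56.9% and 67.7%, 20.0% and 18.4%, 3.25% and 6.70%, and 4.89% and 29.9%. Even the weakest part was thus found more often in ZR_dmCitra and DMSO_50K than not.

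The strongest region of all, chr2:170321479-170322796 (mm10), lay 21.2 kb from Bcas1, a gene of maturing oligodendrocytes that is amplified in breast cancer. Its authors' fold was 74.6 and 72.1 in ZR, 15.3 and 13.2 in ZR_DMSO, 11.7 and 31.0 in ZR_GSK343, 76.8 and 78.5 in ZR_dmCitra, 77.5 and 92.5 in DMSO_50K and 36.9 and 38.3 in Citraconate_50K. Its lowest standing in these 12 lists was at the 91.8 percentile, in ZR_DMSO replicate 2. Nearest genes here give a position only, and no target of any region was measured.

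All 10 libraries outside the rule also had a peak at chr6:122615829-122616108, 5.74 kb from Gdf3, a TGF-beta family ligand of early embryos. There the fold was 50.1 and 48.9 in ZR, 22.7 and 19.3 in ZR_DMSO, 11.7 and 33.4 in ZR_GSK343, 185 and 173 in ZR_dmCitra, 24.0 and 27.3 in DMSO_50K and 58.7 and 58.9 in Citraconate_50K. It stood at the 99.9th percentile in both ZR_dmCitra lists and the 99.7th and 99.6th in Citraconate_50K, the 96.4th and 96.3rd in ZR, the 98.3rd and 97.4th in ZR_DMSO, the 92.2nd and 96.9th in ZR_GSK343, and the 81.8th and 83.6th in DMSO_50K. All other libraries thus ranked it above the DMSO_50K pair, at a region singled out by its standing in these same lists.

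The 10 strongest regions had folds of 59.7 to 79.9 in the ZR libraries, and 7 of them had a peak in all 10 other libraries. The remaining 3, near Dera (deoxyribose-phosphate aldolase), near Asb5 and 470 kb from any gene, lacked a peak in ZR_GSK343 replicate 1. Near Rxfp2, the receptor for the hormone INSL3, chr5:149956506-149957882 had a fold of 79.9 and 67.2 in ZR, 48.8 and 47.2 in ZR_dmCitra, 81.4 and 84.1 in DMSO_50K and 11.96 and 8.88 in Citraconate_50K. Near Kif21a, a neuronal kinesin gene, chr15:91092208-91092865 stood at 84.2 and 86.9 in DMSO_50K and 10.4 and 13.9 in Citraconate_50K. Near Fam110a, chr2:151962064-151963381 had 63.6 and 69.3 in DMSO_50K and 26.0 and 25.0 in Citraconate_50K. A region 61.9 kb from Gpr12, an orphan receptor gene, was the fifth by its lowest standing over the 10 libraries, with 57.5 and 52.2 in ZR.

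Fusion-gained regions were grouped along the chromosome wherever gaps were at most 50 kb. Other sets of regions were not grouped for comparison, so the counts only describe this set. It formed 4633 groups, of which 2949 were single regions (38.0% of regions). In 187 groups there were 5 or more, together 1136 regions (14.6%), and 8 groups held 10 or more. The group between Cdh26, a cadherin gene, and 4930591A17Rik (chr2:178574636-178810250) held 19 fusion-gained regions and no lost or shared one among 28, with a best ZR fold of 69.9. Of the 19, ZR_dmCitra had 18 and 17, DMSO_50K 15 and 15, Citraconate_50K 10 and 10, ZR_DMSO 7 and 10 and ZR_GSK343 1 and 10. A second group of 19, between Gm14410 and Zfp970, had ZR folds of at most 8.61 and 33 shared regions among 118. It lies in a family of near-identical zinc finger genes on chromosome 2, so its reads could belong to other copies and its calls are uncertain.

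Between Zfp217 and Bcas1, 12 regions spanned 129 kb, with the strongest region described above among them. ZR_dmCitra had 10 and 10 of these, DMSO_50K 7 and 9 and ZR_GSK343 2 and 7. Another 12 lay around Phlda1, a gene induced by growth factor signalling, on chromosome 10, of which ZR_dmCitra had 10 and 10 and DMSO_50K 10 and 11. The 11 between Kctd3 and the potassium channel gene Kcnk2 (chr1:189023070-189120234) behaved otherwise. ZR_dmCitra had 11 and 9 of them, but DMSO_50K had 3 and 4, Citraconate_50K 1 and 2, ZR_DMSO 1 and 3 and ZR_GSK343 0 and 2.

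Of the 7763 regions, 5368 lay within 100 kb of a protein-coding gene end, near 3247 genes, and made up 25.8% of the 20837 regions so placed. For NF-kB target genes it was 27 of 70 (38.6%), with 3 lost, near 11 of 24 genes. Ptgs2, which makes prostaglandins, Cd83, a surface protein of activated immune cells, and Csf1, the macrophage growth factor, each had 4. The Ptgs2 region at chr1:150042940-150043535 had a fold of 25.0 and 27.4 in ZR, 10.0 and 10.7 in ZR_DMSO, 10.9 and 9.02 in ZR_dmCitra and 25.1 and 30.0 in DMSO_50K. It had no peak in ZR_GSK343 or Citraconate_50K. Tnfaip3, the NF-kB inhibitor A20, had 3. These counts compare places, not libraries, and stand without a test.

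For developmental transcription factor genes it was 32 of 87 (36.8%), with 9 lost. Tfap2c, a factor of early ectoderm, had 4, the strongest of them at chr2:172643482-172645305 with a fold of 40.5 and 32.8 in ZR, 6.33 and 15.8 in ZR_DMSO, 28.5 and 28.7 in ZR_dmCitra and 20.1 and 22.2 in DMSO_50K. Citraconate_50K had a peak there at 4.68 in replicate 1 and none in replicate 2. Pax3, Pax1 and Runx1, which direct neural crest, skeletal and blood development, had 3 each. The Pax3 and Pax1 regions had no peak in either Citraconate_50K library.

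Around neural stem cell genes the balance was the other way, with 18 gained and 39 lost among 125 regions (14.4% gained and 31.2% lost). All regions placed within 100 kb of a gene end gave 25.8% gained and 15.7% lost. Id2, which holds back differentiation, had 5 gained and none lost. Sox9, a glial progenitor factor, had 4 gained and 3 lost, and Hes1, a Notch target, 2 and 3. Oligodendrocyte genes had 1 gained region of 25 (4%), at Cspg4, and 9 lost (36%). Of the lists of other cell types, astrocyte genes had 5 gained and 3 lost of 16 (31.25% and 18.75%, with 4 gained at Gja1, a gap junction gene). Cilia and ependymal genes had 5 and 2 of 11 (45.5% and 18.2%, with 4 gained at the ciliary factor Rfx3). Microglia genes had 4 and 2 of 11 (36.4% and 18.2%) and neuron genes 4 and 3 of 17 (23.5% and 17.6%). These lists hold few regions, and the neuron shares lay near those of all placed regions.

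Genes of AP-1 and the stress response had 10 gained (22.2%) and 7 lost (15.6%) of 45, where all placed regions gave 25.8% and 15.7%. Of these, 5 gained regions and no lost one were near Atf3, a stress-induced bZIP factor, and 1 gained and 3 lost near Fos, the founding AP-1 gene. ZR_dmCitra had all 5 of the Atf3 regions in both libraries, DMSO_50K and Citraconate_50K 5 and 4 each, ZR_DMSO 4 and 4 and ZR_GSK343 1 and 4. Matrix and collagen genes had 19 gained (24.1%) and 13 lost of 79, and growth factor and receptor genes 20 (29.0%) and 12 of 69. A region 71.5 kb from the growth factor gene Igf1 (chr10:88008556-88009540) had a fold of 50.1 and 60.8 in ZR and a peak in all 10 other libraries. Polycomb genes had 9 gained and 1 lost of 19, the gained near Aebp2 (3), Eed (3), Jarid2 (2) and Ezh1 (1). Genes linked to the fusion had 8 gained (25.8%) and 4 lost of 31, with 2 gained each at the cyclin gene Ccnd1 and the adhesion gene Cd44.

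Itaconate and citric acid cycle genes had 5 gained (27.8%) and 2 lost (11.1%) of 18, near the 25.8% and 15.7% of all placed regions. Acod1, which makes itaconate, had 2 of the 5. The stronger (chr14:103042836-103043142, 3.87 kb from the gene) had a fold of 13.3 and 9.14 in ZR, 6.86 and 8.13 in ZR_DMSO, 9.34 and 9.55 in ZR_dmCitra and 12.8 and 25.4 in DMSO_50K. No peak was found there in either ZR_GSK343 or either Citraconate_50K library. Vascular and mural genes had 7 gained (25.9%) and 2 lost (7.41%) of 27. Interferon genes had 1 (10%) and 0 of 10 (Ifih1, a sensor of viral RNA, in all 10 libraries). Housekeeping genes had 2 (10.5%) and 3 (15.8%) of 19, both gained ones near Actb.

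Whether GSK343 changed the share of fusion-gained regions with a peak was read from lists reduced to the length of the shortest of the 4, 11806 peaks, taking the highest −log10 q. The share was 3.00% and 5.45% in ZR_GSK343 against 14.7% and 17.3% in ZR_DMSO, so the groups did not overlap. The difference was −11.7 ± 2.53 percentage points (n = 2 per group). Here and for the group differences below, ± is the square root of the summed variances of the 2 groups. For shared regions it was −4.61 ± 5.07, for fusion-gained regions inside genes −10.5 ± 2.15 and for those at gene ends −0.855 ± 2.42. Relative to the shared regions the fusion-gained share differed by −7.13 ± 3.54 points. The two-sided exact permutation p was 0.333, which is the smallest that 2 libraries against 2 allow, so no single comparison of 2 groups can pass 0.05. In the strongest of the 4 parts of the regions the share was 6.44% and 17.2% against 43.3% and 52.8%. In the next 2 parts the means were 2.11% against 9.72% and 0.876% against 3.19%. In the weakest part the libraries overlapped, at 3.14% and 1.03% against 3.25% and 2.47%. The difference thus lay mostly in the strongest part.

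Of the fusion-gained regions, 496 (6.39%) had a peak in both ZR_DMSO and neither ZR_GSK343 library at equal length, against 2.73% of all regions between genes and 2.17% of all merged regions. In the opposite direction 16 (0.206%) were called, against 0.514% and 3.07%. Shared regions between genes gave 5.64% lost and 2.86% gained, and fusion-gained regions inside genes 5.61% and 0.261%. The lost share was thus close to that of these like sets. Near Rgs5, a pericyte regulator of G protein signalling, chr1:169601704-169602667 had a fold of 17.4 and 14.2 in ZR_DMSO, no peak in ZR_GSK343 replicate 1 and 9.89 in the full list of replicate 2. Near Btbd3, which orients neuronal dendrites, chr2:138369863-138370794 had 13.7 and 13.7, none and 7.16. A region 1.07 kb from Car15, a carbonic anhydrase gene, was among the 16 gained, with 8.55 and 16.0 in ZR_GSK343 and no peak in ZR_DMSO.

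The GSK343 difference depends on how the lists are compared. In the lists as deposited the ZR_GSK343 share was higher by 7.38 points ± 33.6 (exact permutation p = 1), with replicates at 6.21% and 51.7%, and with a peak required to cover 50% of the region the difference was −0.0386 points ± 2.10, where ZR_DMSO peaks at these regions had a median width of 195 and 174 bp. Relative to shared regions it was −10.8 ± 2.81 as deposited and −11.6 ± 7.90 at 50% cover, and stayed below 0 in all 10 alternatives run. Of these, the replicate block repeats the main value by arithmetic, and ZR as control uses the lists that chose the regions. Neither adds support. The number lost was 161 in the lists as deposited, 853 without ZR_DMSO replicate 2 and 1225 without ZR_DMSO replicate 1, and the difference relative to shared regions was −4.79 without ZR_GSK343 replicate 2 and −13.7 without ZR_DMSO replicate 1.

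ZR_dmCitra was set against the same ZR_DMSO libraries, so the GSK343 and dmCitra results share their controls and are given side by side only. At 11806 peaks the fusion-gained share was 21.8% and 20.0% in ZR_dmCitra against 14.7% and 17.3%, with no overlap and a difference of 4.93 ± 2.26 points (exact permutation p = 0.333). Shared regions differed by −0.315 ± 0.802, fusion-gained regions inside genes by 5.32 ± 1.10 and those at gene ends by 6.32 ± 1.58. From the strongest to the third of the 4 parts by strength the means were 62.3% against 48.1%, 15.6% against 9.72% and 4.20% against 3.19%. In the weakest part the direction turned, with 1.44% and 1.49% in ZR_dmCitra against 3.25% and 2.47% in ZR_DMSO. Among the fusion-gained regions 469 (6.04%) were called gained, against 2.5% between genes and 3.13% of all, and 166 (2.14%) lost, against 2.29% and 1.61%. Shared regions between genes gave 5.44% gained and 7.04% lost, and fusion-gained regions inside genes 5.70% and 1.69%. Against shared regions the gained share was thus close and the lost share lower. Near Sepsecs, an enzyme of selenocysteine synthesis, chr5:52610041-52611128 had a fold of 45.2 and 42.4 in ZR_dmCitra and no peak in ZR_DMSO, while ZR had 9.59 and 10.2. Near the cadherin gene Cdh20, chr1:104997733-104998371 had 43.6 and 35.5, no peak in ZR_DMSO replicate 1 and 6.10 in replicate 2. Near Apba2, chr7:64476273-64476731 was lost, with 12.1 and 12.7 in ZR_DMSO, none in ZR_dmCitra replicate 1 and 6.90 in replicate 2.

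Without ZR_DMSO replicate 1 the difference was 14.6 points and 1326 regions were called gained, and without replicate 2 these were 6.23 points and 718. In the lists as deposited it was 57.5 points, and with 50% cover 18.0, where the difference relative to shared regions turned to −6.68. Taking the untreated ZR libraries as the control gave −20.8 points, but ZR chose the regions and its full lists have all of them by construction.

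In the second series the fusion-gained share was lower in Citraconate_50K than in DMSO_50K, a difference that 2 libraries a group cannot carry past the threshold. At 28580 peaks it was 37.7% and 36.6% in Citraconate_50K against 52.4% and 54.0% in the libraries labelled DMSO_50K, a difference of −16.1 ± 1.34 points with no overlap (exact permutation p = 0.333). Shared regions differed by 0.472 ± 0.850 and fusion-gained regions at gene ends by 0.724 ± 1.59, while those inside genes differed by −12.7 ± 0.954. Relative to shared regions the difference was −16.5 ± 0.791, and −9.02 ± 1.90 at 50% cover. The share itself differed by −40.4 points in the lists as deposited and −28.6 at 50% cover. Treatment and the cell line label changed together in this series and cannot be told apart.

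At equal length 1473 fusion-gained regions (18.97%) had a peak in both DMSO_50K and neither Citraconate_50K library, against 9.63% of regions between genes and 7.79% of all, and 433 (5.58%) the reverse, against 4.35% and 4.61%. Shared regions between genes gave 9.39% lost and 8.85% gained, and fusion-gained regions inside genes 16.7% and 5.72%. With the lists as deposited the fusion-gained regions between genes gave 2530 lost and 79 gained. Among the lost, chr6:22361917-22362576 near Fam3c, a secreted factor gene, had a fold of 56.9 and 68.4 in DMSO_50K, 4.68 in Citraconate_50K replicate 1 and no peak in replicate 2. It had 16.0 and 16.1 in ZR. A region 161 kb from any gene, chr16:78737422-78738398, had 59.1 and 66.6 in DMSO_50K and no peak in Citraconate_50K. Near Rpl39l, a ribosomal protein gene, chr16:10086374-10086956 was called gained, with 16.6 and 16.1 in Citraconate_50K and 5.02 and 9.71 in the full DMSO_50K lists.

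**Figure D4:**
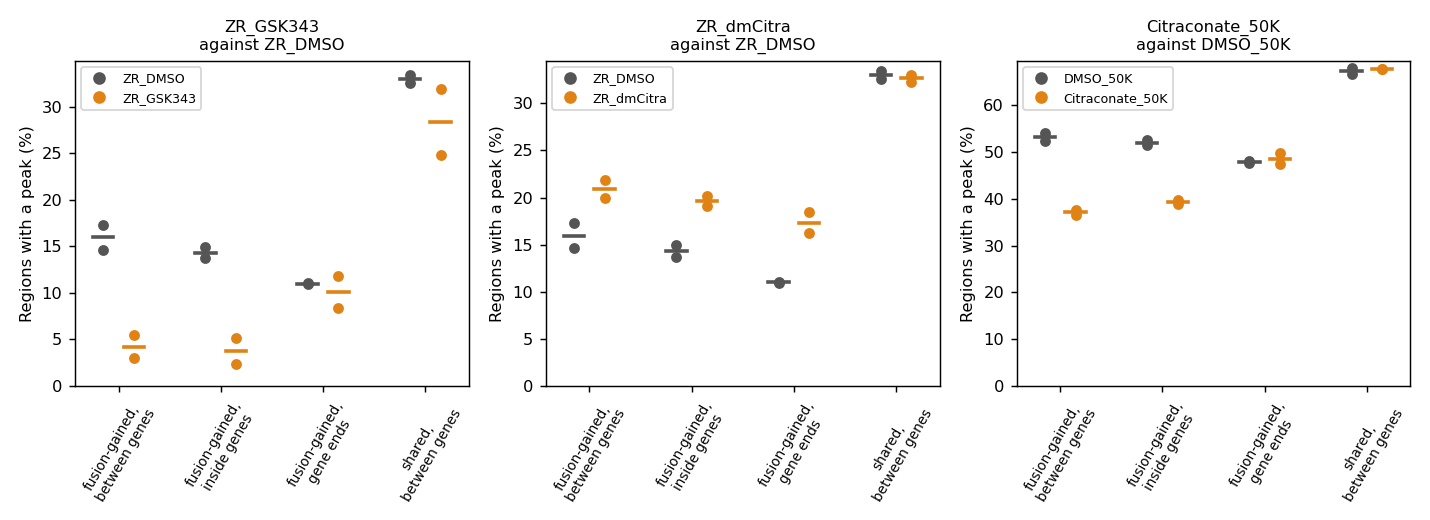
Percentage of regions with a peak at equal list length, for fusion-gained regions between genes, inside genes and at gene ends and for shared regions between genes, in the control (grey) and treated (orange) libraries of 3 comparisons. Points are the 2 libraries of a group and bars their mean. Between genes the ZR_GSK343 points are at 3.00% and 5.45% and the Citraconate_50K points at 37.7% and 36.6%, below their controls, while the ZR_dmCitra points lie above theirs.

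The difference between Citraconate_50K and DMSO_50K was larger farther from genes. At equal length the fusion-gained share in Citraconate_50K was 43.9% and 43.0% at 1 to 10 kb from a protein-coding gene and 24.9% and 26.4% beyond 500 kb, while in DMSO_50K it was 47.2% and 48.4% near and 64.2% and 63.9% far. The difference was −4.32 points at 1 to 10 kb (1550 regions), −14.7 at 10 to 100 kb (3818), −23.2 at 100 to 500 kb (1993) and −38.4 beyond 500 kb (402). The share beyond 100 kb minus that at 1 to 10 kb was −11.3 and −11.1 points in Citraconate_50K and 10.1 and 10.4 in DMSO_50K, a difference of −21.5 ± 0.228 (exact permutation p = 0.333). Shared regions had the same kind of slope, −19.4 and −20.0 against 4.31 and 3.92, so the slope was not particular to the fusion-gained regions. Between ZR_GSK343 and ZR_DMSO the difference went from −8.26 to −16.3 points over the same distances, and between ZR_dmCitra and ZR_DMSO it stayed between 4.01 and 5.47. Shared regions under GSK343 went from 1.30 points at 1 to 10 kb to −15.0 at 100 to 500 kb, with −7.94 beyond 500 kb. Their slope differed between ZR_GSK343 and ZR_DMSO by −15.7 ± 6.95 points, against −6.00 ± 0.224 in fusion-gained regions. This slope too was thus not particular to the fusion-gained regions.

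**Figure D5:**
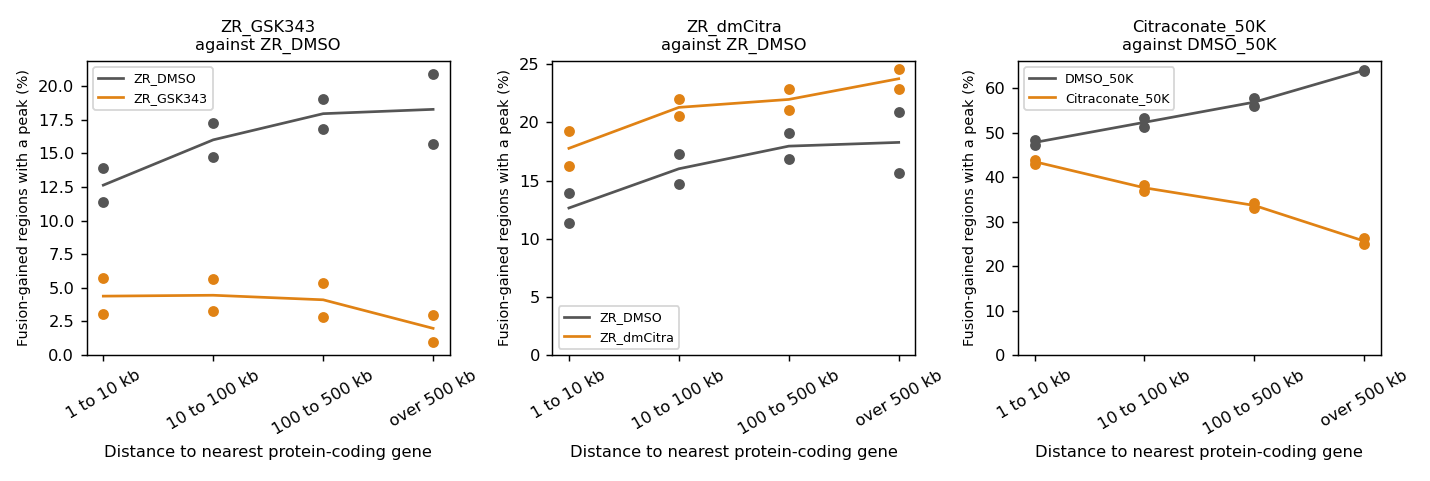
Percentage of fusion-gained regions between genes with a peak at equal list length (vertical axis) by distance to the nearest protein-coding gene (horizontal axis), in the control (grey) and treated (orange) libraries of each comparison. Points are libraries and lines their means. The lines part from −4.32 points at 1 to 10 kb to −38.4 points beyond 500 kb for Citraconate_50K and run nearly parallel for ZR_dmCitra.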

How the data were processed

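Each library's peak list was called by MACS2, as the deposited peak names show (no column header), on mm10, with BWA, SAMtools and Picard per the submitters' processing notes. Versions, settings, peak filters and any Tn5 offset: not given in the sources used here. The deposited values of a peak are a score, the authors' fold enrichment (a ratio) and the p-value and q-value on a −log10 scale, used to describe and rank peaks within a list. Each library used 50000 cells and paired 50 nt reads, per the labels' protocols, and the lists hold no counts, so depth per library is unknown.

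Regions were merged with an overlap of at least 1 bp (Python 3.11.15, numpy 2.4.6, pandas 2.3.3, matplotlib 3.10.9), and distances were taken from RefSeq genes of GRCm38.p6. A group comparison used the 4 lists trimmed to equal length on −log10 q. A region was called gained or lost when both libraries of one group and neither of the other had a peak. Tests were two-sided exact permutation tests, and p-values here measure only the spread between these libraries, which may be technical.

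The regions, gene lists and tests were chosen with earlier results of these data known. Regions were named by rule: the 10 strongest by the poorer ZR percentile, the 5 with the best lowest percentile among those in all 10 other lists, up to 3 gained and 3 lost per comparison, the 5 fullest groups, and up to 4 genes per list by number of regions within 100 kb. Only some of these are printed. Splits by distance and strength at equal length were chosen after the data were seen. Replicate numbers did not pair the libraries (correlations of deviations 0.0248, 0.00133 and −0.0014 over 72575 regions). Alternatives were untrimmed lists, a stricter −log10 q of 5, 50% cover, 5 kb from genes, no chromosome 4, ZR as control, a replicate block and leaving out each library. The code was tested on simulated lists.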

Additional observations from a re-analysis of the deposited data

Results flagged for a closer look

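The share of fusion-gained regions with a peak moved in opposite directions in the 2 citraconate comparisons. ZR_dmCitra minus ZR_DMSO was 4.93 percentage points at 11806 peaks and Citraconate_50K minus DMSO_50K was −16.1 at 28580, and in each comparison both treated libraries lay on the same side of both controls. The difference between the comparisons was not tested. List length, library series and, in the second series, the cell line label of the controls differ as well and cannot be told apart from it.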

How the results depend on the processing

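The number of fusion-gained regions between genes was 6234 to 10616 under all alternatives run (8044 to 10616 leaving out a library). The excess of fusion-gained over fusion-lost share stayed positive in all of them (12.4 points with all lists at 11806 peaks, 26.8 at 50% cover, 38.0 at −log10 q of 5, and 33.8 to 43.8 leaving out a library). It was 54.8 points with ZR_dmCitra and Citraconate_50K alone and 39.0 with 4 group means, both added after seeing the data, each with an exact permutation p of 0.125, the smallest for 4 values.

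For ZR_GSK343 against ZR_DMSO the share difference turned to 7.38 in lists as deposited and 7.83 with −log10 q of at least 5, and was −14.4 to −10.4 leaving out a library (relative to shared regions −10.8, −11.3 and −11.6 as deposited, at −log10 q of 5 and at 50% cover, and −13.7 to −4.79 leaving out a library). Lost and gained counts were 161 and 166 as deposited, 141 and 142 at −log10 q of 5, 1426 and 84 against ZR, 41 lost at 50% cover, and 525 to 1225 and 29 to 120 leaving out a library. For ZR_dmCitra the share difference was 57.5 as deposited, 58.5 at −log10 q of 5, 18.0 at 50% cover, −20.8 against ZR and 4.01 to 14.6 leaving out a library, and relative to shared regions −9.64 against ZR, −6.68 at 50% cover and 4.71 to 6.13 leaving out a library. Gained and lost counts were 3408 and 4 as deposited, 3523 and 4 at −log10 q of 5, 1142 and 19 at 50% cover, 0 and 1094 against ZR, and 614 to 1326 and 197 to 459 leaving out a library. For Citraconate_50K against DMSO_50K the difference kept its sign throughout (−40.4 as deposited, −43.5 at −log10 q of 5, −28.6 at 50% cover, −17.3 to −15.3 leaving out a library; relative to shared regions −9.02 at 50% cover and −17.1 to −16.1 leaving out a library). Gained counts were 79, 69 and 239 as deposited, at −log10 q of 5 and at 50% cover, lost counts 2530 and 2752 at the first and second of these, and 500 to 690 and 1645 to 1894 leaving out a library. With fewer lists required to agree, counts rise by construction when a library is left out. The full ZR lists hold every region by construction. In the runs against ZR all lists were trimmed to the shortest of the 4. The cause of the other changes was not tested.

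With the replicate number as a block, differences were the same size (−11.7, 4.93 and −16.1 points) with an exact permutation p of 0.5, the smallest for 2 pairs, and no call changed. The numbers did not pair the libraries. Depth is unknown, so a missing peak is not a closed region, and short lists limit what can be found again.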
